A study of Mus musculus with 4 samples.

Results

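The insulin-like growth factor (IGF) system was described in the bladders of male mice by its 10 genes: the ligands Igf1 and Igf2, the receptors Igf1r and Igf2r, and the binding proteins Igfbp2 to Igfbp7. Members were taken by symbol from the annotation of the array probes. All 10 were measured, by 16 of the 46657 probes, and they stand among 15366 named genes. Where a gene had more than 1 probe, the brightest one, by its mean of the 4 arrays, was used and the others were set beside it. Biotinylated cRNA made from bladder total RNA had been hybridised to Illumina arrays. Of the 4 arrays, 2 came from sham-operated mice and 2 from mice whose bladder outlet had been partially obstructed, surgery that narrows the outflow so that the bladder must push harder to empty, and that were sampled at 14 days. All mice were male and on a normal diet. The labels give no day for the sham group and no strain, genotype or age. Their treatment field names obstruction for all 4 arrays, so that the groups rest on the titles. The titles number every array differently, but nothing in the labels says that each holds a different mouse, so the p-values measure only the spread between these arrays. How much of it is technical is not given, and it was wide for some genes, as the sums of accessory gland markers given with the cell types show for the sham arrays.

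The IGF ligands are small secreted growth factors related to insulin. Both signal through Igf1r, a tyrosine kinase receptor of the cell surface that acts mainly through the AKT and ERK cascades, and this signal promotes growth and survival of smooth muscle cells. Igf2r lacks a kinase and carries Igf2 to the lysosome for breakdown. The binding proteins hold the ligands in tissue fluid and blood, which can keep them from the receptor or form a store that proteases release. The series addresses the enlargement of bladder smooth muscle under obstruction.

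In the obstructed bladders Igf2, Igfbp5 and Igfbp7 lay below both sham arrays, and Igfbp2 lay above both. The mean of Igf2 was 2.22-fold lower, that of Igfbp5 1.78-fold lower, that of Igfbp7 1.39-fold lower and that of Igfbp2 1.98-fold higher. None of the 10 genes passed the test over all genes by limma (adjusted p below 0.05), where 0.0521% of all genes did, 8 in number. The 10 genes were chosen with earlier results of these data known, so the shares of all genes are no test of them. At an unadjusted p below 0.05 there were 3 of the 10, all lower, against 5.09% of all genes that were lower and 8.14% in either direction. This count was 1 without sham replicate 2 and 5 without obstructed replicate 1. The groups did not overlap for 4 of the 10, against 39.2% of all genes, so this count was near the background. The median difference of the 10 was -0.06 on the log2 scale, against -0.02 for all genes, and 7 had a lower mean, against 53.1% of all genes.

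The series asks about the transcription factors NF-kB and GATA-6, so the stretch before the start of transcription was read for the letters of their sites. RefSeq (GRCm38.p6) gave such a stretch of 250 bases for each of the 10 genes, 14 in all, since Igf2 has 4 starts and Igfbp2 has 2. Both strands were searched for AGATAA (a site of the GATA factors), the NF-kB type (GGGA and CC with any 4 bases between), TGACTCA (AP-1 type, the site of stretch-responsive Fos and Jun) and TATAAA (the core letters of the box found before some starts). The NF-kB letters occurred in 3 of the 14, those of Igf1, Igf2 and Igfbp5, against 17.6% of 32817 stretches of all genes. The AP-1 letters occurred in 1, of Igfbp2, against 4.46%. AGATAA itself occurred in 0 of 14, against 9.99% of all stretches. Looser GATA spellings were not searched or counted. Examples are AGATAG near the end of the Igf1 stretch and TGATAA on the opposite strand of the Igfbp6 stretch. The letters of the box occurred in 2, against 12.4%. Those of Igfbp4 lie on the strand of the gene, 28 bases before the start. Those of Igfbp6 lie on the opposite strand, 148 bases before the start. The stretches of the 10 genes had a median of 66.6% G and C, against 52.4% for all stretches. The shares of all stretches were not matched for this. Printed here are the 4 stretches that hold NF-kB or AP-1 letters, since they belong to both ligands and to the binding proteins with the largest difference in each direction. They run 5′ to 3′ in the direction of the gene and end at the base before the start, with the matched letters in capitals.
Igf1, chr10:87860861-87861110, plus strand: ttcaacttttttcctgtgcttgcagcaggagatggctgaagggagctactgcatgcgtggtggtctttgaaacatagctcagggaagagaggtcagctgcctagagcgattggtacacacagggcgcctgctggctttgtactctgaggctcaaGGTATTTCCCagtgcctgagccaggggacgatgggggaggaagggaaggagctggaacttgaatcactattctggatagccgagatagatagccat
Igf2, chr7:142657497-142657746, minus strand: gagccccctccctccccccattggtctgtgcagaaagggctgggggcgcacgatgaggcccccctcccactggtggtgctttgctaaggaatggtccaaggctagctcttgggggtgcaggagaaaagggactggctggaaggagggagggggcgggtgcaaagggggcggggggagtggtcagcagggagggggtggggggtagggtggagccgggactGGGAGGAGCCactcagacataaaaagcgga
Igfbp2, chr1:72825137-72825386, plus strand: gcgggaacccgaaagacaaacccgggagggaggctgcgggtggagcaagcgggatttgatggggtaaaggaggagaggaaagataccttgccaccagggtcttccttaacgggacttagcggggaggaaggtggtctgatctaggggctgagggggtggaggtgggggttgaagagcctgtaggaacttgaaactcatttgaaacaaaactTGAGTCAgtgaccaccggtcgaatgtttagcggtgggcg
Igfbp5, chr1:72874866-72875115, minus strand: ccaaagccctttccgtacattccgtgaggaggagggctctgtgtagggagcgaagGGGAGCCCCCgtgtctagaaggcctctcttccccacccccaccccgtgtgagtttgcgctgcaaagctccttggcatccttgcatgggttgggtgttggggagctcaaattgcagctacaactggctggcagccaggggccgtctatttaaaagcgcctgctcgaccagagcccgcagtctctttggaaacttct
The NF-kB letters of Igf1 lie on the opposite strand with their first base 96 bases before the start. Those of Igf2 and Igfbp5 lie on the strand of the gene, 30 and 195 bases before the start. The AP-1 letters of Igfbp2 lie 39 bases before the second of its starts, and their capitals spell the opposite strand's match. A match of letters is a description and no measured binding, the lack of one says nothing about the factor, and no array value was tied to one start of a gene.

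Of the ligands, Igf1 is the one that growth hormone induces in liver and that many tissues also make locally. Igf1 measured 8.82 and 8.36 in sham replicates 1 and 2, and 9.06 and 8.72 in obstructed replicates 1 and 2 (log2 intensity, probe 3290280). The groups overlapped, since obstructed replicate 2 lay between the sham arrays. The difference, obstructed minus sham, was 0.30 on the log2 scale (SE 0.25, 95% interval -0.32 to 0.92), with a limma adjusted p of 0.811. A second, dimmer probe of Igf1 differed by 0.24, with obstructed replicate 1 at 0.80 above the sham mean and obstructed replicate 2 at -0.32. Without sham replicate 2 the difference of Igf1 was 0.07.

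Igf2, an imprinted gene expressed from the paternal copy and best known for growth before birth, measured 9.45 and 10.37 in the sham arrays. It measured 8.97 and 8.56 in obstructed replicates 1 and 2 (log2 intensity, probe 6510020). Both obstructed arrays lay below both sham arrays, although the sham arrays were themselves 0.92 apart. The log2 difference of Igf2 was -1.15 (SE 0.35, 95% interval -2.0 to -0.29), with a limma adjusted p of 0.492, and it was -0.69 without sham replicate 2. Against the sham mean, obstructed replicate 1 lay at -0.94 and obstructed replicate 2 at -1.36. In bulk tissue, fewer cells that express a gene and less RNA per cell cannot be told apart.

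**Figure D1:**
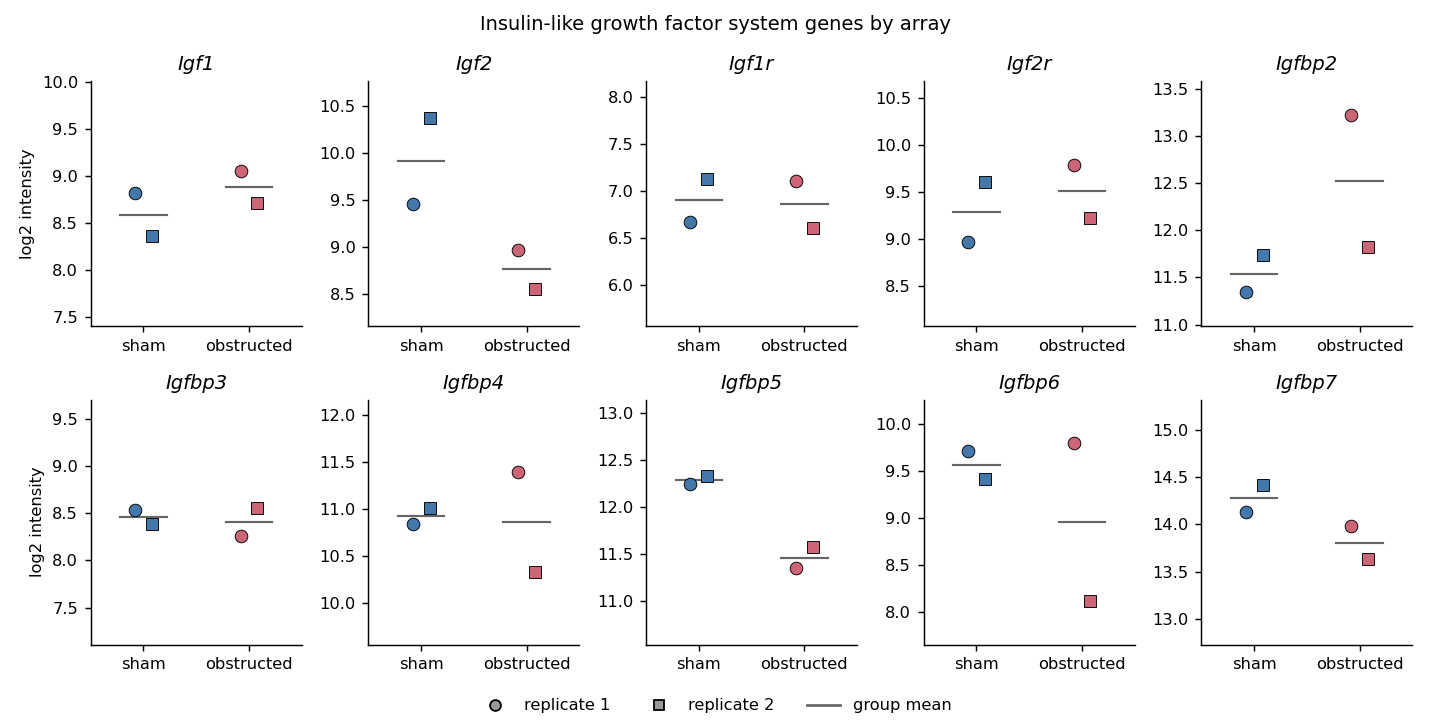
Log2 intensity (y axis) of the 10 genes in the sham and obstructed groups, with 1 point per array, circles for replicate 1, squares for replicate 2 and a bar at the group mean. Every panel spans the same number of log2 units. Igf2, Igfbp5 and Igfbp7 show both obstructed points below both sham points, Igfbp2 shows both above, and the obstructed points of Igfbp2, Igfbp4 and Igfbp6 lie 1 log2 unit or more apart.

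The receptors showed no separation of the groups. Igf1r measured 6.68 and 7.13 in sham and 7.11 and 6.61 in obstructed replicates 1 and 2 (log2 intensity, probe 3360494). Its difference was -0.04 (SE 0.24, 95% interval -0.63 to 0.55, limma adjusted p = 0.981). The obstructed arrays thus spanned about the range of the sham arrays. Igf2r measured 8.97 and 9.60 in sham and 9.78 and 9.23 in obstructed bladders (probe 1570402), a difference of 0.22 (SE 0.31, 95% interval -0.55 to 0.98, limma adjusted p = 0.892). Obstructed replicate 1 lay above both sham arrays and obstructed replicate 2 between them. These intervals allow changes of either sign, so they do not show that receptor RNA stayed the same.

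Among the binding proteins, Igfbp5, which also binds to extracellular matrix, had the smallest p of the 10 genes and the 160th smallest of all genes. It measured 12.25 and 12.33 in sham replicates 1 and 2, and 11.35 and 11.57 in the obstructed arrays (log2 intensity, probe 104560022). All obstructed values lay below all sham values, and the arrays of each group lay close together. The log2 difference of Igfbp5 was -0.83 (SE 0.18, 95% interval -1.26 to -0.40), with a limma adjusted p of 0.303. A second probe for Igfbp5, 2360592, read 11.72 and 11.90 in sham and 10.87 and 11.21 in obstructed bladders, a log2 difference of -0.77. Both probes therefore gave groups that did not overlap, with similar differences. Against the sham mean, obstructed replicate 1 lay at -0.94 and obstructed replicate 2 at -0.72. Fits with 1 obstructed array alone take the spread of the same sham arrays for the lone array. Without sham replicate 1 the log2 difference of Igfbp5 was -0.87, and without sham replicate 2 it was -0.79.

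Igfbp7, a distant relative that binds the ligands weakly and is abundant around blood vessels, measured 14.13 and 14.42 in sham and 13.98 and 13.63 in obstructed bladders (log2 intensity, probe 520411). Both obstructed arrays lay below both sham arrays. The difference was -0.47 (SE 0.17, 95% interval -0.89 to -0.06, limma adjusted p = 0.562). The other probes of Igfbp7 were dim, below the median over all probes (5.80) on all 4 arrays, and differed by -0.02 and 0.34. For the latter, 5290152, both obstructed arrays (5.39 and 5.49) lay above both sham arrays (5.14 and 5.06). Dim as they are, these probes say little. With all its probes averaged the difference of Igfbp7 was -0.05.

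Igfbp2, which binds Igf2 more tightly than Igf1 and also binds integrins, measured 11.34 and 11.74 in sham replicates 1 and 2 (log2 intensity, probe 5220563). The obstructed arrays read 13.23 and 11.82. Obstructed replicate 1 stood well above the other 3 arrays, while obstructed replicate 2 lay just above sham replicate 2. The mean log2 difference of Igfbp2 was 0.99 (SE 0.45, 95% interval -0.11 to 2.08, limma adjusted p = 0.646). Against the sham mean the obstructed arrays lay at 1.69 and 0.28. With obstructed replicate 1 alone Igfbp2 was called higher (limma adjusted p = 3.15e-04), and with obstructed replicate 2 alone it was not (0.548).

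Igfbp6, which prefers Igf2 as its ligand, measured 9.72 and 9.42 in sham and 9.79 and 8.12 in obstructed replicates 1 and 2 (log2 intensity, probe 1580181). Obstructed replicate 2 was the lowest array by far and obstructed replicate 1 the highest. The log2 difference of Igfbp6 was -0.61 (SE 0.53, 95% interval -1.89 to 0.68, limma adjusted p = 0.816). With obstructed replicate 2 alone it was called lower (limma adjusted p = 0.00105), while without that array its difference turned to 0.23.

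Igfbp4, an inhibitory binding protein that the protease pappalysin cleaves, split in the same way. It measured 10.84 and 11.02 in sham and 11.39 and 10.33 in obstructed replicates 1 and 2 (log2 intensity, probe 5420441). The obstructed arrays lay on either side of both sham arrays, at 0.46 and -0.60 from the sham mean. A second probe, 2680309, lay at 0.65 and -0.70. The mean difference of Igfbp4 was -0.07 (SE 0.36, 95% interval -0.95 to 0.81, limma adjusted p = 0.979). Igfbp3, the main carrier of the ligands in blood, measured 8.54 and 8.38 in sham and 8.26 and 8.56 in obstructed bladders (log2 intensity, probe 106350309). Its groups overlapped, with a difference of -0.05 (SE 0.21, 95% interval -0.57 to 0.46, limma adjusted p = 0.972). A dimmer probe of Igfbp3 differed by -0.20, and its groups did not overlap (6.78 and 6.85 in sham, 6.53 and 6.71 in obstructed bladders).

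**Figure D2:**
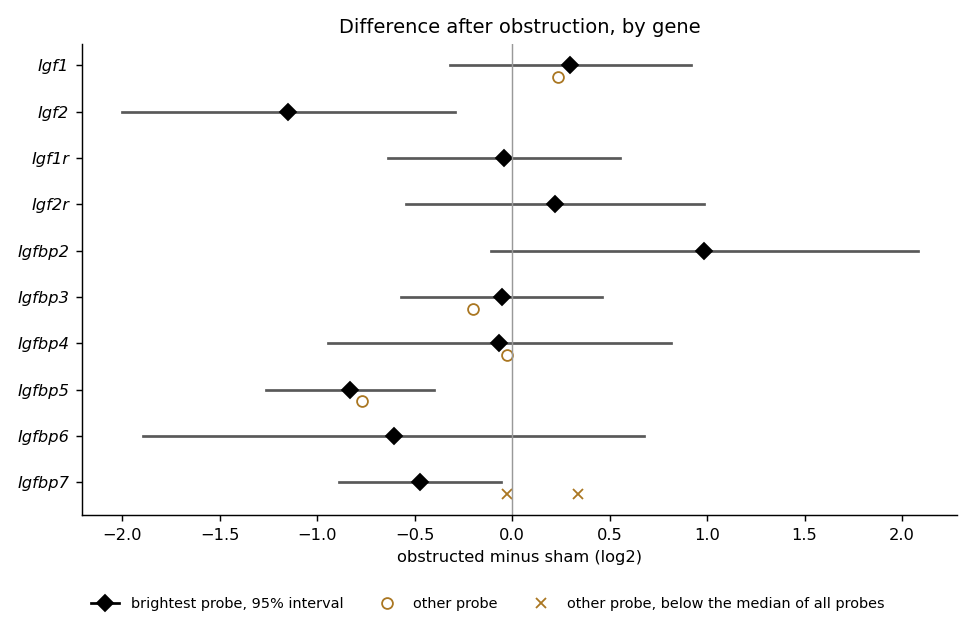
Difference obstructed minus sham on the log2 scale (x axis) for the 10 genes. Diamonds are the brightest probes with the 95% interval of the limma fit, open circles are other probes, and crosses are other probes below the median of all probes. The intervals of Igf2, Igfbp5 and Igfbp7 lie below 0 and those of the other 7 genes include 0.

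The obstructed arrays lay far apart for some of the genes. In 3 of the 10 genes, Igfbp2, Igfbp4 and Igfbp6, they lay 1 log2 unit or more apart, against 3.83% of all genes. In 5 of the 10, Igf1r, Igf2r, Igfbp3, Igfbp4 and Igfbp6, they lay on opposite sides of the sham mean, against 38.7% of all genes. Over all probes the correlation was 0.969 between the obstructed arrays and 0.989 between the sham arrays. Setting obstructed replicate 2 alone against sham, limma called 4 of the 10, Igf2, Igfbp5, Igfbp6 and Igfbp7, all lower, against 8.45% of all genes. With obstructed replicate 1 alone it called 2, Igfbp2 higher and Igfbp5 lower, against 2.10% of all genes.

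Markers of several cell types also had different values in these arrays, although 0 of the 62 measured in 12 lists was called by limma over all genes. Smooth muscle markers, 7 of 7 measured and all above the median of all probes on every array, had a summed level (log2 of the summed intensities) of 16.46 and 16.73 in sham and 16.46 and 15.93 in obstructed replicates 1 and 2. The 8 fibroblast markers summed to 15.87 and 15.96 in sham and to 15.94 and 15.44 in obstructed replicates 1 and 2. The 8 secretory markers of male accessory glands summed to 12.02 and 8.69 in sham and to 13.39 and 17.73 in obstructed bladders. As list medians, obstructed replicate 2 lay at -1.07 for smooth muscle, -0.64 for fibroblasts and 9.01 for accessory glands from the sham mean, and obstructed replicate 1 at -0.14, -0.03 and 3.30. Igf2, Igf1r, Igfbp4, Igfbp6 and Igfbp7 were lowest in obstructed replicate 2, while Igf1, Igf2r, Igfbp2, Igfbp3 and Igfbp5 were not. That array had the lowest summed smooth muscle and fibroblast values and the highest summed accessory gland values. In 10 of the 12 lists the median was lower in obstructed replicate 2 than in replicate 1, among them erythroid cells at -1.54 and 0.04, Schwann cells at -1.46 and -0.76, mesothelium at -1.28 and -0.20, macrophages at -1.16 and -0.15 and skeletal muscle at -1.03 and -0.49. Summed, the mesothelium markers lay at 12.73 and 12.40 in sham and 12.37 and 12.41 in obstructed replicates 1 and 2. For that list replicate 2 was thus lower than replicate 1 by the median and not by the sum. In 7 lists the medians lay below the sham mean in both obstructed arrays, and each of these medians was lower in replicate 2. Igf2, Igfbp5 and Igfbp7 also lay below the sham mean in both. Igfbp5 was lower in replicate 1 (-0.94) than in replicate 2 (-0.72). The share of all genes below the sham mean in both arrays was not computed. The 2 Schwann cell markers measured summed to 9.58 and 9.49 in sham and 8.26 and 7.27 in obstructed bladders. The 4 skeletal muscle markers summed to 10.98 and 10.91 in sham and 9.97 and 9.54 in obstructed bladders. Urothelial markers, of which 5 of 6 were measured, summed to 14.59 and 14.41 in sham and to 14.62 and 14.55 in obstructed bladders, with Upk1b and Krt20 dim on all 4 arrays. The part of these cell types in the values of the IGF system was not tested.

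**Figure D3:**
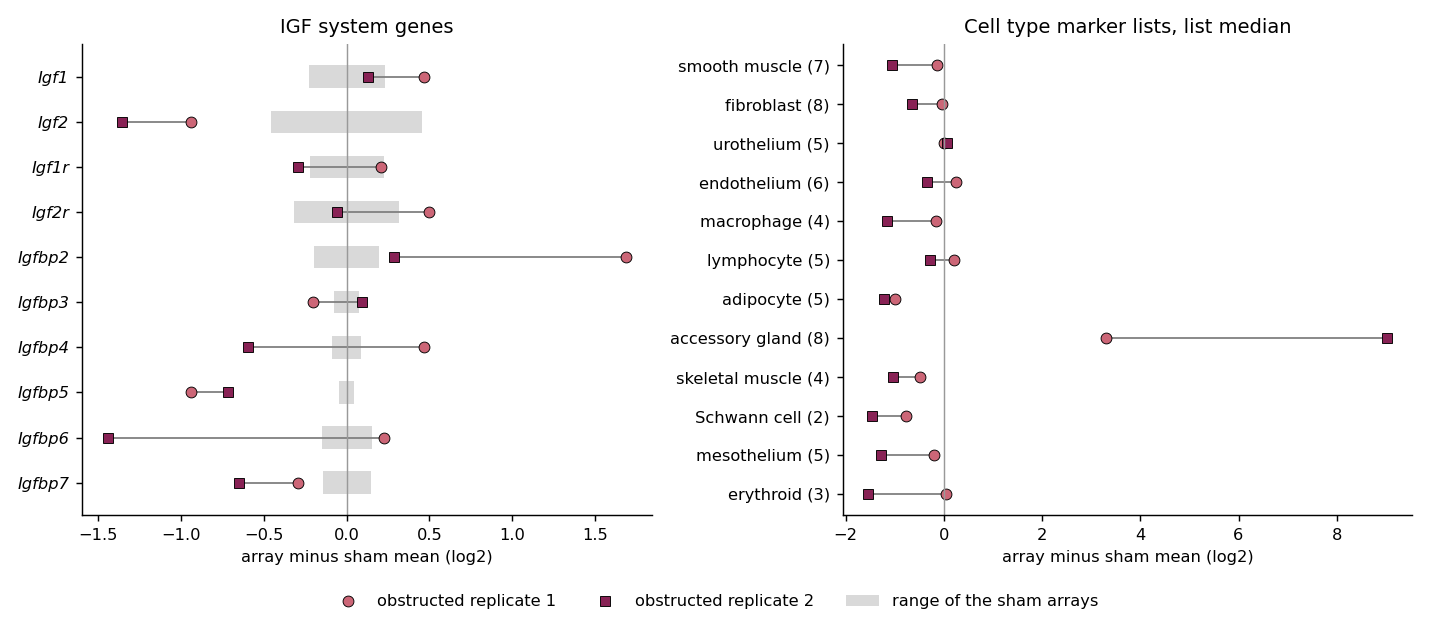
Left, each obstructed array minus the sham mean on the log2 scale for the 10 genes, with circles for replicate 1, squares for replicate 2 and a grey bar for the range of the sham arrays. Right, the same for the median of each cell type marker list, with the number of genes measured in parentheses. Igf2, Igfbp5 and Igfbp7 lie below the grey bar in both arrays, and the accessory gland list lies at 3.30 and 9.01.

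The genes around the IGF system were taken from lists of growth hormone signalling, binding protein proteases and their inhibitors, receptor adaptors, the PI3K, ERK and FOXO pathways, Igf2 mRNA-binding proteins and imprinted genes. Of their 133 genes 105 were measured and 0 passed limma's test over all genes. The lists were chosen with earlier results of these data known, so the share of all genes is no test of them. At an unadjusted p below 0.05, 3 of the 105 had higher and 16 had lower values. Together these were 18.1% of those measured, against 8.14% of all genes (3.05% higher and 5.09% lower). The median difference of the 105 genes was -0.18 on the log2 scale, against -0.02 for all genes. Of the 105, 73 had a lower mean, against 53.1% of all genes.

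A list of growth hormone signalling and other insulin family genes covers what acts upstream of Igf1 together with relatives of the system such as Ins2, Insr and Igfbp1. Of its 12 measured genes 4 reached an unadjusted p below 0.05, all of them lower, against 5.09% of all genes that were lower. All 4 belong to growth hormone signalling, and the median over the whole list was -0.27. Further genes of that signalling, named after their values were seen, differed by -0.41 for Socs2, -0.05 for Socs3 and 0.38 for Stat5a. Ghr, the growth hormone receptor, measured 9.95 and 10.20 in sham and 9.08 and 9.10 in obstructed bladders (log2 intensity). All obstructed values of Ghr lay below all sham values, a difference of -0.99 (SE 0.21, limma adjusted p = 0.303). Cish, an inhibitor of cytokine signalling that the transcription factor STAT5 induces, measured 10.04 and 9.60 in sham and 8.23 and 8.57 in obstructed bladders. The difference of Cish was -1.42 (SE 0.25, limma adjusted p = 0.207). The kinase Jak2, which carries the signal of Ghr, differed by -0.74 and Stat5b by -0.42, the latter dim in its mean. Adipocyte markers, 5 of 6 measured, had list medians of -1.0 and -1.22 in obstructed replicates 1 and 2, with summed levels of 11.06 and 10.04 in sham and 8.02 and 8.14 in obstructed bladders. Of these Plin1 was dim on all 4 arrays. Their part in the values of Ghr and Cish was not tested.

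Genes that govern the release of the ligands from their binding proteins included the lowest p among the lists. Stc1 and Stc2 are stanniocalcins, secreted inhibitors of the pappalysins that cleave Igfbp4 and Igfbp5. Stc1 measured 8.48 and 8.79 in sham and 6.93 and 6.63 in obstructed bladders (log2 intensity), a difference of -1.85 (SE 0.21, limma adjusted p = 0.0908). Stc2 measured 8.18 and 8.36 in sham and 7.34 and 7.17 in obstructed bladders, a difference of -1.02 (SE 0.19, limma adjusted p = 0.220). In both genes the obstructed values lay near each other and under all sham values. Kazald1, a secreted relative of the binding proteins, differed by -0.89 and the matrix protease Adamts1 by -0.66. Of the 13 genes of this list these 4 reached an unadjusted p below 0.05, against 8.14% of all genes in either direction. The largest difference upward, 1.83 for the protease Mmp7 and named after its values were seen, came from 1 array, obstructed replicate 2 at 9.22 against 5.25 to 5.74 in the others. Pappa and Pappa2, the pappalysins, were not analysed here.

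Downstream of the receptor lie the kinase cascades. At an unadjusted p below 0.05 there were 8.14% of all genes in either direction. Of 22 genes of PI3K, AKT and mTOR signalling, 1 reached that level, with a list median of -0.10. The 1 was Pdpk1, the kinase that activates AKT, at 7.87 and 8.29 in sham and 9.0 and 9.10 in obstructed bladders (log2 intensity). Its obstructed values lay above both sham values, a difference of 0.97 (SE 0.23, limma adjusted p = 0.346). Tsc1, an inhibitor of mTOR signalling, differed by -0.37, Akt1s1, a subunit of an mTOR complex, by 0.33, and the ribosomal S6 kinase gene Rps6kb2 by 0.28. Of 8 genes of the ERK cascade none reached an unadjusted p below 0.05, with a median of -0.07, and Map2k1, Araf, Nras and Spry2 differed by -0.39, 0.27, -0.21 and -0.20. Of 14 adaptors and inhibitors at the receptor, Grb14, which restrains insulin receptor signalling, differed by -0.78 and the dim Sh2b2 by 0.42, and these were the 2 that reached an unadjusted p below 0.05. The dim Irs4 and Trib3 differed by -0.29 and -0.24, and the list median was -0.18.

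FOXO transcription factors are held out of the nucleus by AKT. Of 15 such factors and targets 1 was lower at an unadjusted p below 0.05, against 5.09% of all genes. This was Pdk4, an inhibitor of pyruvate dehydrogenase, at 9.22 and 9.58 in sham and 8.20 and 8.02 in obstructed bladders (log2 intensity). Its difference was -1.29 (SE 0.22, limma adjusted p = 0.201), and its groups did not overlap. Txnip and Foxo3 differed by -0.41 and -0.24, and the dim Foxo4 by -0.31. The median of the list was -0.19.

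The proteins that bind Igf2 mRNA and the imprinted genes known to act in a network with Igf2 contained further genes with lower values. Igf2bp1 and Igf2bp3, RNA-binding proteins best known from the embryo, differed by -0.75 (SE 0.20) and -0.82 (SE 0.28), with limma adjusted p of 0.425 and 0.545. Igf2bp1 measured 6.53 and 6.76 in sham and 5.66 and 6.12 in obstructed bladders, near the median of all probes. The list also holds Hmga2, which is not an Igf2 mRNA-binding protein. All 4 measured genes of the list had a lower mean, against 53.1% of all genes. Lin28a, near the median of all probes, differed by -0.27 and the dim Hmga2 by -0.26. Of 18 imprinted genes measured, an unadjusted p below 0.05 was reached by 4 with lower and 1 with higher values. Of all genes 5.09% were lower and 3.05% higher at that level. The median of the imprinted genes was -0.17. Dlk1, a membrane protein that restrains adipocyte formation, measured 7.83 and 7.5 in sham and 6.84 and 6.20 in obstructed bladders, a difference of -1.15 (SE 0.26, limma adjusted p = 0.330). Gatm, an enzyme of creatine synthesis, differed by -0.90 and Phlda2, a regulator of placental growth, by -0.70. Cdkn1c, a brake on the cell cycle named after its values were seen, differed by -0.60. Sgce, a sarcoglycan, was the 1 higher at 0.44, and it lay below the median of all probes. H19, the imprinted neighbour of Igf2, was not analysed here.

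**Figure D4:**
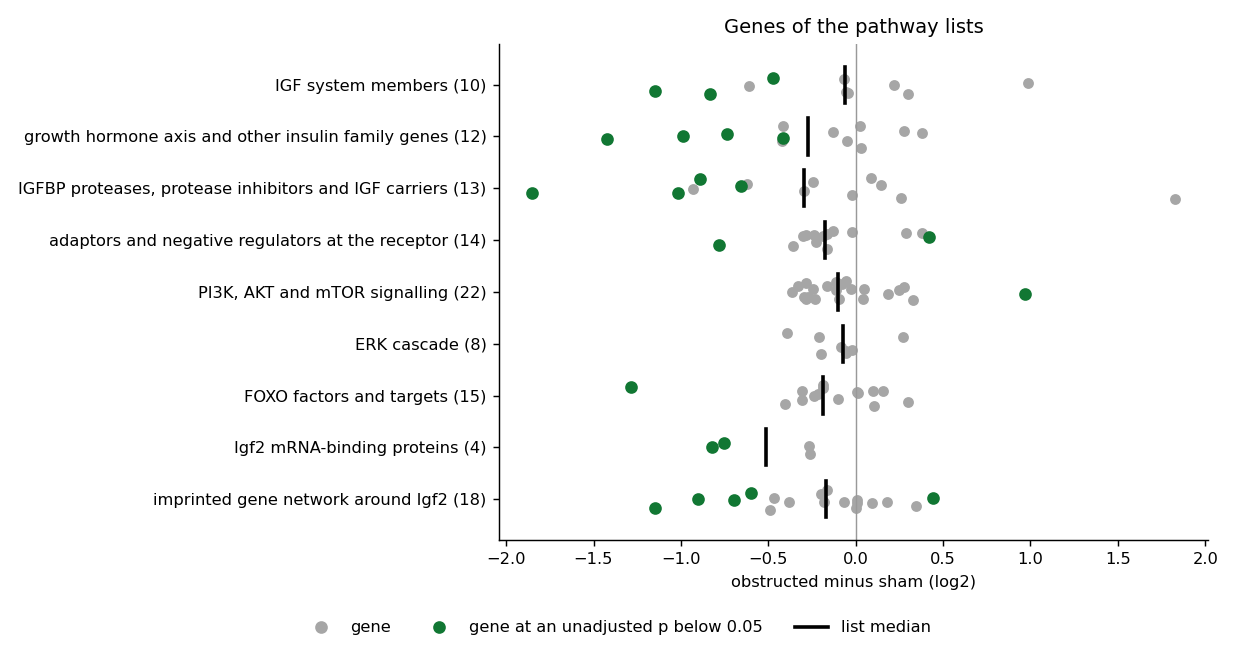
Difference obstructed minus sham on the log2 scale (x axis) for every measured gene of the IGF system and of 8 lists around it, with the number of genes in parentheses. Green points are genes at an unadjusted p below 0.05, grey points the others, and the black bars are list medians. These run from -0.51 for the list of Igf2 mRNA-binding proteins, which also holds Hmga2, to -0.06 for the IGF system.

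The genes whose 4 values ran most like those of each ligand were found by the root mean square distance between values centred on their own mean, over the 4 arrays and 10578 genes above the median of all probes. For Igf1 they were Bop1, Pigx, Alkbh7, Scamp5 and Ebp, at distances of 0.02 to 0.04. For Igf2 the nearest was Rims1 at 0.02, which measured 8.27 and 9.22 in sham and 7.78 and 7.37 in obstructed bladders. Next came the interferon-inducible Irgm2, Gbp7 and Gbp2b and the chemokine Cxcl12, at distances of 0.12 to 0.16. With 4 arrays such likeness describes these samples only.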

How the data were processed

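Total RNA of 4 samples of mouse bladder was hybridised to Illumina arrays, per the labels' protocols. The authors deposited 1 value per probe and array, which runs from 4.14 to 15.63 and was therefore taken as log2 intensity, the scale being unstated. The sorted values of the 4 columns differed by at most 0.0252, which is what quantile normalization leaves. The sources used here do not name the background correction or scanner software, and there were no detection p-values. Gene names came from the platform annotation (22380 probes with 1 symbol, 0 with several, 24277 with none), and 22380 gene numbers were found in the RefSeq table. Such annotation can be out of date.

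The comparison of obstructed with sham was fitted across all genes by limma 3.58.1 under R 4.3.3 (lmFit, then eBayes with a variance trend), using 1 probe per gene and no filter. Tests were two-sided and adjusted by Benjamini-Hochberg over 15366 genes, with adjusted p below 0.05 called. Moderation gave 6.04 degrees of freedom per gene, and the number of arrays limits the precision. The scripts were tested on simulated data. Figures were drawn with matplotlib 3.10.9.

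The members and lists were chosen with earlier results of these data known. Named were all members with all their probes, up to 4 genes of smallest p per list, and the 5 genes nearest to each ligand. Lists were described by counts and medians, with no set test. The labels give no pairing of the samples. The correlation of same-numbered deviations was -0.02, which cannot settle pairing with so few arrays per group. Alternatives were 16 settings of normalization, floor, filter, probe choice, variance model, array weights, replicate block, threshold and arrays left out.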

Additional observations from a re-analysis of the deposited data

How the results depend on the processing

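Over 16 alternatives Igf1 and Igfbp2 kept a higher mean, and Igf2, Igfbp5 and Igfbp7 a lower one, but the size moved. With 1 array left out the log2 difference ran from 0.07 to 0.53 for Igf1, 0.28 to 1.69 for Igfbp2, -1.61 to -0.69 for Igf2, -0.94 to -0.72 for Igfbp5 and -0.65 to -0.29 for Igfbp7, and Igfbp7 was at -0.05 with all its probes averaged. Of the 10 genes, 3 as reported were at an unadjusted p below 0.05, against 1 without sham replicate 2, with a floor of 50 or without moderation, 2 with the replicate block, with all probes averaged or without a trend, 4 with array weights or without obstructed replicate 2, and 5 without obstructed replicate 1. None of the 10 genes was called by limma except where an obstructed array was left out: leaving out 1 array gave 0 to 4 of them, 0 to 17 genes of the lists around them and 0 to 1299 of all genes. Without sham replicate 1 limma called 0 of all genes (588 at an unadjusted p below 0.05) and without sham replicate 2 also 0 (590), without obstructed replicate 1 1299 and without obstructed replicate 2 323. The direction turned with single arrays for Igf1r (-0.29 to 0.21 over the arrays left out), Igf2r (-0.10 to 0.54), Igfbp3 (-0.20 to 0.10), Igfbp4 (-0.60 to 0.46) and Igfbp6 (-1.44 to 0.23), and the cause was not tested. Of all genes, against 8 as reported, limma called 0 with a floor of 50 (1249 at an unadjusted p below 0.05), 0 without moderation (1061), 3 without dim genes, 17 with a robust trend and 23 at an adjusted p below 0.1, where 1 gene of the lists, Stc1, passed. With the replicate number as a block it called 1 of all genes, and 0 of the 10. Dim values can understate differences.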

Other observations

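Igfbp2 and Igfbp5, whose mean differences were 0.99 and -0.83 on the log2 scale, are neighbours on chromosome 1 of the mouse, with no other protein-coding gene between them in the RefSeq table of GRCm38.p6. Rpl37a, the ribosomal protein gene on the far side of Igfbp2, differed by 0.10, and Tnp1, on the far side of Igfbp5 and near the median of all probes, by -0.24. Of the protein-coding neighbours of Igf2 on chromosome 7, Mrpl23, a gene of the mitochondrial ribosome, differed by 0.03 and Ins2, an insulin gene, by 0.03, against -1.15 for Igf2. Igfbp1, the neighbour of Igfbp3 on chromosome 11, was dim, below the probe median on all 4 arrays, and differed by 0.28. None of these genes was called by limma, with adjusted p from 0.303 for Igfbp5 to 0.986 for Mrpl23.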
